A study of Homo sapiens with 12 samples.

Results

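DHRS2 and 9 further genes named DHRS were followed in parental HCT116 cells and in an oxaliplatin-resistant line derived from them. They are 10 of the 54261 genes in the total RNA count table, and all 10 were found there by name. DHRS2 was chosen by its measured counts, for its large fall in the resistant line. Its difference between the lines is therefore a description with no test. DHRS4, DHRS4L2, DHRS1, DHRS3, DHRS7, DHRS7B, DHRS9 and DHRS13 were taken as its paralogs. DHRS4-AS1 was taken as the antisense transcript of DHRS4, the neighbour of DHRS2 on chromosome 14.

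Parental HCT116, an established human colorectal carcinoma line, gave 3 total RNA libraries with no drug treatment described. HCT116oxR gave 3, from cells that had survived oxaliplatin, a platinum drug that forms DNA adducts, in steps from 0.1 µmol/L up to 5 µmol/L, the last of which was kept for 1 year. Cultures of each line were grown and harvested separately, but HCT116oxR is 1 line, and how far separately selected resistant lines would differ is outside what the p-values cover. Libraries held 11950069 to 13558077 counts. Levels are given as CPM, the counts scaled to a common library size after TMM normalisation, with the SD over 3 libraries. The epithelial genes EPCAM, KRT8, KRT18, KRT19 and CDH1 were expressed in both lines. Of 12 colorectal epithelial markers 7 averaged at least 1 CPM, with CEACAM5 at 0 counts and VIL1, CDX1, LGALS4 and GPA33 below 1 CPM. Their summed level was 3077 to 3184 CPM in parental and 3697 to 3780 CPM in HCT116oxR libraries. The leukocyte genes PTPRC and CD3E had 0 counts, and 6 leukocyte markers summed to 10.3 to 13.4 CPM in parental and 5.38 to 6.86 CPM in HCT116oxR libraries. Sums of 6 fibroblast markers were 55.2 to 68.3 and 46.6 to 51.7 CPM, and those of 4 endothelial markers 1.66 to 2.43 and 3.01 to 3.98 CPM. Most of each of these 3 sums came from a single gene. In parental and HCT116oxR libraries CD68 averaged 11.8 and 5.57 CPM, COL1A1 53.5 and 43.3 CPM, and VWF 1.63 and 2.72 CPM. The part of these shifts in the results below was not tested.

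The DHRS genes belong to the short-chain dehydrogenases/reductases, enzymes that bind NAD(H) or NADP(H) in a Rossmann fold and move hydride to or from carbonyl and alcohol groups of retinoids, steroids, lipids and foreign compounds. DHRS2, first described as HEP27, reduces dicarbonyl compounds, has been found in mitochondria and the nucleus, binds MDM2, and is induced by butyrate and other histone deacetylase inhibitors. DHRS4 is a peroxisomal carbonyl and retinal reductase, and its cluster has arisen by duplication. DHRS3 reduces retinal to retinol and is itself a target of retinoic acid.

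The start of DHRS2 differs in sequence from that of its chromosome 14 relatives, and 3 upstream stretches are shown for that reason. Each is the 250 bases before a RefSeq transcript start on GRCh38.p14, plus strand. They lie at chr14:23629865-23630114 (DHRS2), chr14:23953520-23953769 (DHRS4) and chr14:23988679-23988928 (DHRS4L2, 1 of its 3 listed starts, chosen as the closest match to DHRS4). Capitals mark TATAAA in DHRS2, and GGGCGG or its reverse complement CCGCCC in the others.
DHRS2: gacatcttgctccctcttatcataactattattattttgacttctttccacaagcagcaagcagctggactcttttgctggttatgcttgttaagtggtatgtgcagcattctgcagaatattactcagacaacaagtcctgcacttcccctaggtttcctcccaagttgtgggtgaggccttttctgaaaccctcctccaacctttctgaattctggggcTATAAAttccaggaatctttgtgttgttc
DHRS4: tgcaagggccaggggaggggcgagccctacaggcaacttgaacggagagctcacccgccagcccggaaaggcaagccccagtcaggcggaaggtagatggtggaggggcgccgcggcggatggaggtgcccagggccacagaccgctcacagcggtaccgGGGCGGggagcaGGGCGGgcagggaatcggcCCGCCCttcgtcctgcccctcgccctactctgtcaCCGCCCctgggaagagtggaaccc
DHRS4L2: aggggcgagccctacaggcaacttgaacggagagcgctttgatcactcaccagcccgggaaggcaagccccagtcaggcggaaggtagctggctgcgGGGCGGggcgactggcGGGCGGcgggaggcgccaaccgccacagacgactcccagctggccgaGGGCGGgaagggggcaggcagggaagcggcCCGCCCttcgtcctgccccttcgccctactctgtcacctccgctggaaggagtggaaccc

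The DHRS2 stretch holds 0 CpG dinucleotides at a GC content of 43.2%, and TATAAA begins 29 bases before the start. The DHRS4 stretch holds 19 CpG at 70.8% GC and has GGGCGG letters at 4 places over both strands. In the DHRS4L2 stretch there were 21 CpG and 4 such places. DHRS4 and DHRS4L2 aligned with 209 identical bases, 77.99% of 268 alignment positions, at that start, which was picked as the closest match. At the other DHRS4L2 starts the identity to DHRS4 was 53.3% and 56.0%, and DHRS2 and DHRS4 shared 45.8% of 301 positions. Among 35116 upstream windows of the same length in the table, which can hold several starts of a gene, 6.06% had no CpG, 6.80% had TATAAA on the gene strand, 1.14% had both, and 42.6% had GGGCGG on either strand. The median window held 11 CpG.

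Of the 10 genes, 9 had at least 1 upstream window in the table (DHRS7 had none). DHRS9 was the other one with few CpG at every listed start, with 0 to 2 in its 4 windows. TATAAA lay on the gene strand at its first start, 32 and 114 bases upstream, and at another start 137 bases upstream. At their richest start DHRS1 had 28 CpG, DHRS3 26, DHRS7B 21, DHRS13 19 and DHRS4-AS1 11. Single starts of DHRS3 and DHRS7B were poorer, with 3 and 6 CpG. On either strand, CCAAT was found upstream of DHRS9 and DHRS7B, AGGTCA (the core element of many nuclear receptors) upstream of DHRS3, and TGACNNNGC (the core of the antioxidant response element) upstream of DHRS9 and DHRS1. These letters occurred in 32.0%, 12.1% and 10.9% of all windows. None of these last 3 motifs was matched in the DHRS2 window. A match is a string of letters and not evidence of binding.

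**Figure D1:**
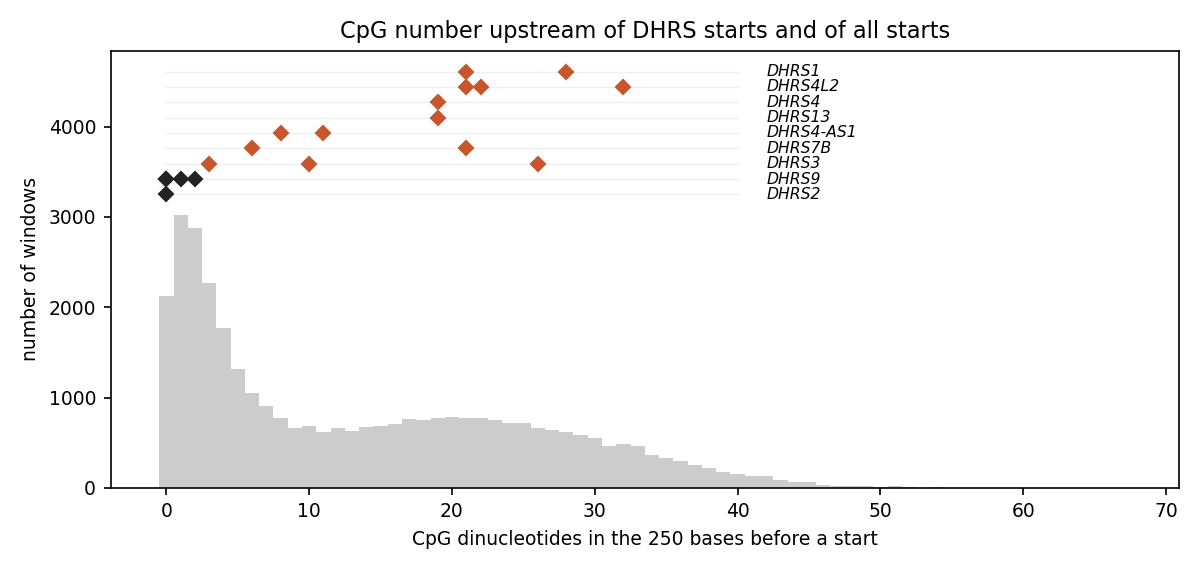
CpG dinucleotides in the 250 bases before a start (x axis). Grey bars count all 35116 windows (y axis), and diamonds, at heights without scale, mark each listed start of the DHRS genes, in black for DHRS2 and DHRS9 and in orange for the others. DHRS2 lies at 0 CpG and DHRS9 at 0 to 2, while DHRS1, DHRS4 and DHRS4L2 lie at 19 or more.

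DHRS2 (NCBI gene 10202, chromosome 14, 23630115 to 23645639 on GRCh38.p14) had 26189, 22546 and 23954 counts in the parental libraries and 152, 158 and 128 counts in the HCT116oxR libraries. The scaled levels were 1976, 1896 and 1939 CPM against 11.2, 11.8 and 10.4 CPM. The lines lay far apart, and within each line the libraries stood close together. DHRS2 made up 0.189% to 0.196% of all counts of a parental library and 0.00104% to 0.00118% of a resistant one. The mean went from 1937 ± 40.1 to 11.1 ± 0.683 CPM (SD, n = 3 per line), 174-fold lower, with a fitted log2 fold change of -7.44. This is the value that chose the gene. The transcript was not lost in the resistant line, where 128 or more counts remained in each library. Only 3 of 17511 tested genes had a lower fitted log2 fold change. In bulk RNA, fewer cells with the transcript and less transcript per cell cannot be told apart.

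**Figure D2:**
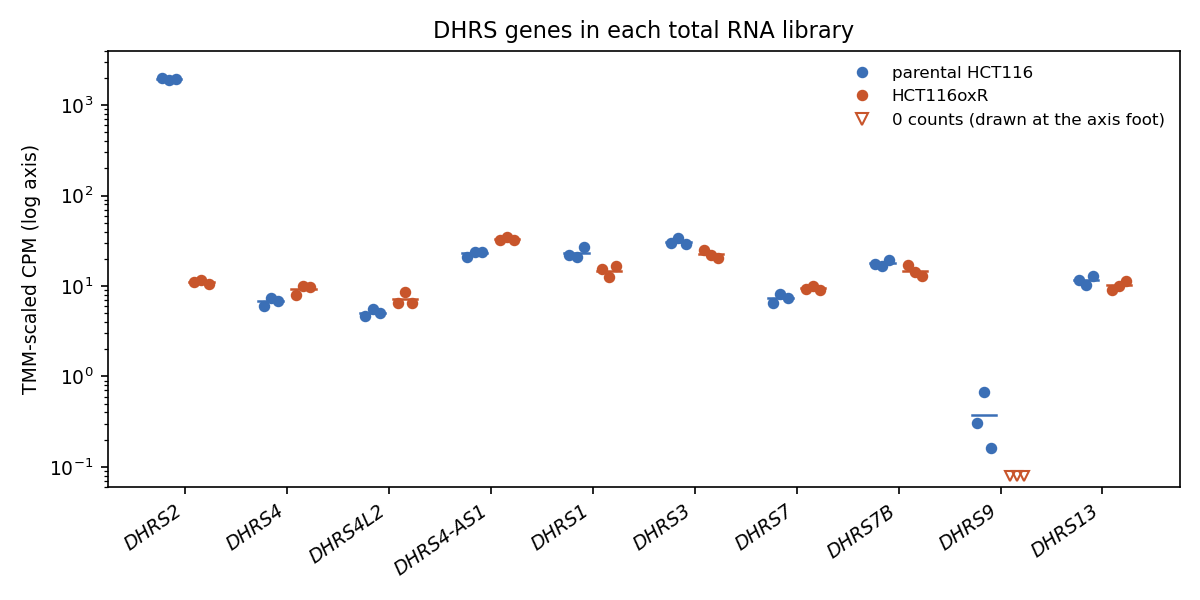
Level of each of the 10 genes (TMM-scaled CPM, log axis) in the 3 parental and 3 HCT116oxR libraries, with 1 point per library and a bar at the mean of each line. DHRS2 goes from about 1937 to 11.1 CPM, and the other genes apart from DHRS9 differ far less between the lines. DHRS9, too low to be tested, had 0 counts in each HCT116oxR library.

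None of the other genes with enough counts to be tested fell nearly as far as DHRS2, though DHRS1 and DHRS3 also fell. Of the other 9 genes 8 had enough counts to be tested, 3 rose, 2 fell and 3 did not pass (edgeR quasi-likelihood test, 2-sided, Benjamini-Hochberg adjusted over all genes, threshold 0.05). The 5 changed genes are 62.5% of those tested, beside 44.1% of all genes tested, 22.3% higher and 21.8% lower, so that the share is not far from the background. Their log2 fold changes ran from -0.65 to 0.54 with a median of 0.08, against a median of -0.00 over all genes, and no gene among them changed by 2-fold. The lines did not overlap in 6 of the 8, beside 50.5% of all genes tested. Without parental replicate 1 or without HCT116oxR replicate 2 the changed genes numbered 3, with 1 higher. By DESeq2, 2 rose and 3 fell, since DHRS4L2 was lost and DHRS9 was added. The log2 fold change of DHRS9 was -4.75 there, from 14 parental counts and 0 in HCT116oxR.

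The DHRS4 cluster, which starts 308.6 kb downstream of DHRS2, went the other way. DHRS4-AS1, a long non-coding RNA that has been reported to silence the cluster (chromosome 14, 23938731 to 23955112), stood at 21.1, 23.7 and 23.96 CPM in parental and 32.4, 35.2 and 32.2 CPM in HCT116oxR libraries. Every resistant library lay above every parental one, and the transcript rose by 0.54 ± 0.10 (log2, SE, edgeR adjusted p = 8.15e-07). DHRS4 (23953770 to 23969279) had 6.04, 7.32 and 6.88 CPM against 7.89, 9.92 and 9.86 CPM. The gene rose by 0.45 ± 0.17 (edgeR adjusted p = 0.0248), again without overlap. DHRS4L2, a DHRS4 copy (23969874 to 24006408), had 4.60, 5.55 and 5.02 CPM against 6.56, 8.58 and 6.44 CPM. Its rise was 0.51 ± 0.20 (edgeR adjusted p = 0.0258).

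Both coding genes rested on few counts, 80 to 133 per library for DHRS4 and 61 to 115 for DHRS4L2, and on single libraries. DHRS4 no longer passed without parental replicate 1 (0.37), HCT116oxR replicate 2 (0.39) or HCT116oxR replicate 3 (0.40). DHRS4L2 no longer passed without parental replicate 1 (0.44), parental replicate 3 (0.51) or HCT116oxR replicate 2 (0.36), nor by DESeq2 (0.51, adjusted p = 0.0508). DHRS4-AS1 passed in each of these fits.

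DHRS4 overlaps DHRS4-AS1 from 23953770 to 23955112. Use of strand in counting is not given in the sources used here, so reads of the sense and antisense transcripts cannot be told apart in that stretch. Reads of the near-identical copies may also have been split. DHRS4L1, the third copy, annotated as a transcribed pseudogene, had 4, 10 and 3 parental and 13, 6 and 8 resistant counts, too few for the test. The 3 copies summed to 10.9, 13.7 and 12.1 CPM in parental and 15.4, 18.95 and 16.9 CPM in HCT116oxR libraries. That sum, chosen after the data were seen, rose by 0.48 ± 0.13 (log2, SE, edgeR adjusted p = 0.00120). The value does not depend on how counted reads were divided among these copies. Shared reads that may have been left uncounted are missing from it, and reads of DHRS4-AS1 may be in it.

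The proportions of the cluster's transcripts within a library were also compared between the lines. The log2 ratio of DHRS4-AS1 to DHRS4 counts was 1.77 ± 0.06 in parental and 1.86 ± 0.17 in HCT116oxR cells (SD, n = 3, exact permutation p = 0.4, 2-sided). For DHRS4 over DHRS4L2 it was 0.41 ± 0.04 and 0.36 ± 0.22 (exact permutation p = 0.8), and for DHRS4-AS1 over DHRS4L2 it was 2.18 ± 0.08 and 2.22 ± 0.16 (exact permutation p = 0.7). The lines overlapped in all 3 ratios, and each adjusted p was 0.8. With 3 libraries per line the smallest p possible is 0.1, above the threshold of 0.05. A shift of any size could therefore not have passed, and no conclusion is drawn from these p-values.

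DHRS1 and DHRS3 fell. DHRS1, an enzyme of the endoplasmic reticulum that lies further along chromosome 14 (24290598 to 24299780), had 22.3, 20.8 and 26.7 CPM in parental and 15.3, 12.5 and 16.7 CPM in HCT116oxR libraries. The lines did not overlap, and DHRS1 fell by 0.65 ± 0.12 (log2, SE, edgeR adjusted p = 1.36e-06). DHRS1 overlaps NOP9, which fell by 0.19 ± 0.04. DHRS3, the retinal reductase on chromosome 1 (12567910 to 12618210), had 29.6, 33.8 and 29.4 CPM against 25.0, 21.9 and 20.4 CPM. All resistant libraries were below all parental ones, and DHRS3 fell by 0.46 ± 0.10 (edgeR adjusted p = 4.58e-05). Both calls held without each library in turn, at -0.74 to -0.54 for DHRS1 and -0.54 to -0.39 for DHRS3.

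DHRS7, DHRS7B and DHRS13 did not pass. DHRS7, an enzyme of the endoplasmic reticulum that reduces steroids and retinoids (chromosome 14, 60144119 to 60169889), had 6.41, 8.16 and 7.45 CPM in parental and 9.29, 9.92 and 8.96 CPM in HCT116oxR libraries. The lines did not overlap, yet the log2 fold change of 0.36 ± 0.17 (SE) had an edgeR adjusted p of 0.0718. DHRS7 overlaps PCNX4, which rose by 0.17 ± 0.05. DHRS7B, an acyl-dihydroxyacetone phosphate reductase of ether lipid synthesis (chromosome 17, 21126964 to 21191420), stood at 17.4, 16.6 and 19.3 CPM against 17.0, 14.4 and 12.95 CPM (-0.26 ± 0.12, edgeR adjusted p = 0.0805). DHRS13 (chromosome 17, 28897781 to 28903079) had 11.8, 10.3 and 13.0 CPM against 9.15, 10.1 and 11.3 CPM (-0.21 ± 0.15, edgeR adjusted p = 0.268). Libraries of the lines overlapped for both.

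DHRS9, a retinol and steroid dehydrogenase on chromosome 2 (169067077 to 169096167), had 4, 8 and 2 counts in the parental libraries and 0 in each HCT116oxR library. It did not have enough counts to be tested. Against a floor of 3 counts over the resistant libraries together it was 4.85-fold lower, with its 14 parental counts taken as exact. This is not a lower limit, since counting error in the parental counts is left out. DHRS9 passed when genes with few counts were kept (log2 fold change -5.31, edgeR adjusted p = 0.0164) and by DESeq2 (-4.75, adjusted p = 0.0185).

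Of the 5 further genes named DHRS, DHRS11 (-0.41 ± 0.19, edgeR adjusted p = 0.0795) and DHRS12 (0.16 ± 0.21, edgeR adjusted p = 0.574) could be tested and did not pass. The call for DHRS11 turned on HCT116oxR replicate 3, without which it was lower by -0.64 (edgeR adjusted p = 0.0164). DHRS7C and DHRSX were listed at 0 in every library, and DHRS4L1 is given above. How reads that match several places were counted is not given in the sources used here. A listing of 0 is therefore not read as absence of a transcript.

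The next comparison asked whether the genes around DHRS2 differed too. Between LOC102724814, 69.0 kb before the start of DHRS2, and DHRS4-AS1, 308.6 kb after it, no other gene was tested. The 11 further genes in that interval had at most 13 counts over the parental and 8 over the resistant libraries, and 5 had none. LOC105370407, a long non-coding RNA 31.2 kb after the DHRS2 start, was the highest of them in parental cells, with 13 counts there and 0 in HCT116oxR. Of the other nearest genes with counts, JPH4 had 5 parental and 0 resistant counts, LOC105370408 2 and 1, and LOC105370410 2 and 0. Further along, LOC102724845 had 6 and 8, and LOC105370411 5 and 3. LOC105370407 had 3, 5 and 5 counts in the parental libraries and 0 in each HCT116oxR library, but was not tested. The counts of the others are too few for a direction to be read. DHRS2 thus lay among genes at or near 0. Of the nearest tested genes, LOC102724814 before it fell (-1.58 ± 0.18) and DHRS4-AS1 after it rose (0.54 ± 0.10).

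Further out, 60 tested genes started within 1 Mb of DHRS2, the DHRS4 cluster and DHRS1 included. Of these 20 rose and 11 fell, 51.7% changed beside 44.1% of all genes, with a median log2 fold change of 0.07. They ran from -1.58 to 1.22, far above the value of DHRS2. LOC102724814, which overlaps AP1G2 and JPH4, had the lowest value. It fell from 12.7 ± 1.16 to 4.20 ± 1.35 CPM (-1.58 ± 0.18). AP1G2, an adaptor subunit of vesicle traffic that overlaps AP1G2-AS1 and THTPA, rose by 0.15 ± 0.05, and NGDN by 0.22 ± 0.09, and both calls were lost in some fits without 1 library. ZFHX2 (0.23 ± 0.13) and THTPA (-0.54 ± 0.37), which overlap each other, did not pass. By DESeq2, 15 of the neighbours rose and 13 fell.

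On the far side of the DHRS4 cluster CARMIL3 stood at 0.94 ± 0.30, a call lost without HCT116oxR replicate 2 (0.58), and NRL at -0.27 ± 0.37, which did not pass. The largest rises at a sufficient level were those of TGM1, the transglutaminase of the epidermal barrier (3.35 ± 0.744 to 7.14 ± 0.747 CPM, 1.09 ± 0.22), and NFATC4 (0.96 ± 0.22), followed by CARMIL3 and SLC22A17 (0.92 ± 0.22). SLC22A17 moved to 0.59 without parental replicate 1 and to 1.39 without parental replicate 3, and DESeq2 did not call it (adjusted p = 0.102). DHRS1 lay beside other genes that fell, the leukotriene receptor genes LTB4R2 (-0.91 ± 0.13) and LTB4R (-0.77 ± 0.08), which overlap each other and were picked after their values were seen. Without HCT116oxR replicate 2 the genes that rose numbered 12.

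**Figure D3:**
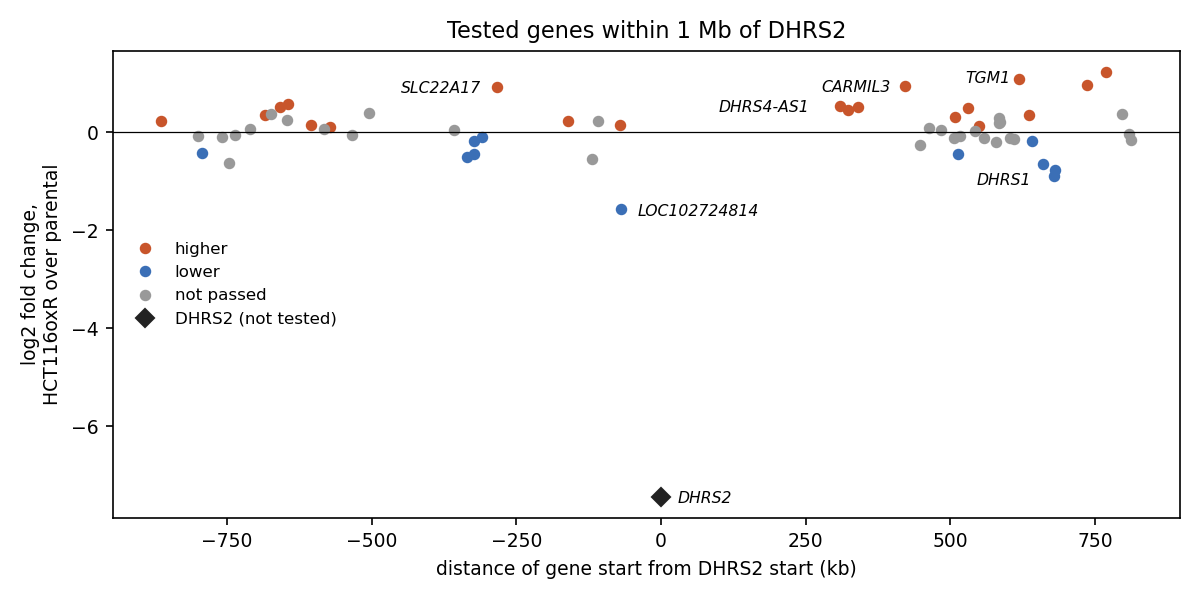
Log2 fold change of HCT116oxR over parental cells (y axis) for the 60 tested genes within 1 Mb of DHRS2 and for DHRS2 itself (black diamond), by distance of their starts from its start in kb (x axis). Orange genes rose, blue genes fell and grey genes did not pass; the neighbours lie between -1.58 and 1.22 and DHRS2 at -7.44.

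Around the other members the local medians were small as well. The 19 tested genes within 1 Mb of DHRS3 had a median log2 fold change of -0.28, with 5 higher and 7 lower, the same direction as DHRS3 itself. Around DHRS1 the median of 44 genes was -0.01, around DHRS7 that of 14 genes was 0.10, around DHRS13 that of 46 genes was 0.14, and around DHRS7B that of 10 genes was -0.07. The part of the local shift in the fall of DHRS3 was not tested.

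**Figure D4:**
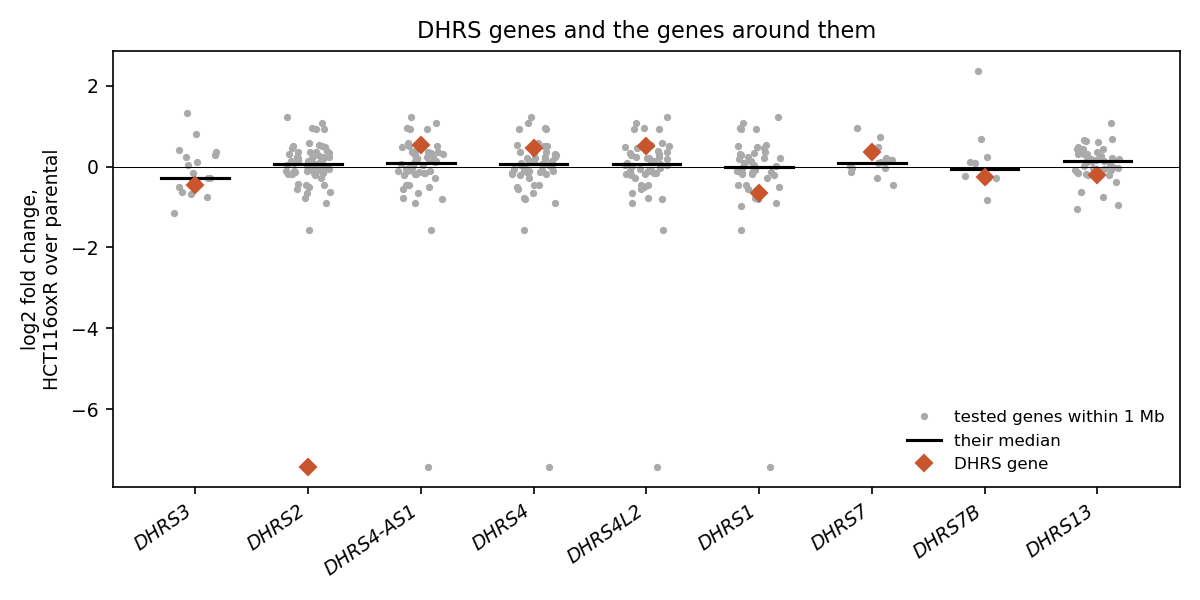
Log2 fold change of HCT116oxR over parental cells (y axis) of the 9 DHRS genes with a fitted value (orange diamond) and of the tested genes within 1 Mb of it (grey points, with their median as a bar). The windows of the chromosome 14 cluster share genes, and the grey points at -7.44 are DHRS2 itself; the medians lie between -0.28 and 0.14.

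The 5 transcripts listed here had the pattern most like DHRS2, by the root mean square distance between log2 CPM profiles over the 6 libraries, each centred on its parental mean. HYDIN, a gene of motile cilia, was the nearest at 0.44, followed by LOC105376506 at 0.93, TNFRSF9, the gene of the T cell costimulator CD137, at 0.97, DAPP1 at 1.02 and CSMD3 at 1.25. All of them were at or near 0 in HCT116oxR, with 0.250 CPM or less, whereas DHRS2 kept 11.1 CPM. They were picked by these same values and met the required level through the parental libraries. Their fall thus follows from the choice and is a description with no test, and the limits below do not allow for that choice. HYDIN had 811 parental counts and 1 resistant count, and its CPM ratio was 844 (95% limits from counting error alone, 151 to 33363). For DAPP1, with 490 and 2 counts, the CPM ratio was 255 (limits 70.2 to 2110). None of the 5 lies on chromosome 14.

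Other enzymes of the short-chain dehydrogenase family showed how the wider superfamily behaved. Of 41 listed genes 32 were tested, 11 rose, 4 fell and 17 did not pass. Their median log2 fold change was 0.22. The 46.9% changed stand beside 44.1% of all genes. SDR16C5, a retinol dehydrogenase on chromosome 8, went from 3 counts in all parental libraries to 237 in all resistant ones, a CPM ratio of 75.9 (95% limits from counting error alone, 25.7 to 371). DECR1, the mitochondrial dienoyl-CoA reductase of fatty acid oxidation, rose from 24.6 ± 1.44 to 45.8 ± 1.68 CPM (0.90 ± 0.09). It too lies on chromosome 8, where 7 of the 8 tested genes within 1 Mb of it rose, with a median of 0.55. The part of that shift in its rise was not tested.

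DCXR, the L-xylulose reductase that also reduces dicarbonyls, rose from 61.4 ± 2.83 to 92.2 ± 2.25 CPM (0.59 ± 0.06), and SPR, the sepiapterin reductase of tetrahydrobiopterin synthesis, by 0.43 ± 0.09. RDH10, the retinol dehydrogenase that feeds retinoic acid synthesis and overlaps RDH10-AS1, fell from 41.6 ± 1.37 to 31.3 ± 2.59 CPM (-0.41 ± 0.08). KDSR, a reductase of sphingolipid synthesis, fell by 0.29 ± 0.06. Without parental replicate 2 the genes of the list that fell numbered 2.

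Retinoid handling genes went both ways. Of 13 tested among 24 listed, 4 rose, 2 fell and 7 did not pass, 46.2% changed beside 44.1% of all genes, with a median of -0.00. LRAT, which stores retinol as esters, rose from 6.85 ± 0.923 to 15.3 ± 0.875 CPM (1.16 ± 0.15). CRABP2, which carries retinoic acid to its receptors, rose from 76.5 ± 5.54 to 120.0 ± 4.56 CPM (0.65 ± 0.05). STRA6, the retinol uptake receptor, rose by 1.11 ± 0.30 and overlaps CCDC33. FABP5 rose by 0.94 ± 0.21 on chromosome 8, where the 12 tested genes within 1 Mb had a median of 0.92. BCO2, a carotenoid cleavage enzyme, fell by 1.35 ± 0.35, and CYP26B1, which degrades retinoic acid, by 0.31 ± 0.09. The call for CYP26B1 was lost without parental replicate 3 (-0.19), which left 1 lower gene.

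A last set held genes tied to DHRS2 in earlier work, the ubiquitin ligase gene MDM2, whose product DHRS2 binds, the transcription factor gene MYB and class I histone deacetylases. Of the 6 genes described 3 rose and 3 did not pass, beside 44.1% of all genes changed. MDM2 stood at 552 ± 9.66 and 531 ± 10.7 CPM (-0.06 ± 0.03, edgeR adjusted p = 0.132). MYB rose from 10.6 ± 1.94 to 19.8 ± 2.58 CPM (0.90 ± 0.13). HDAC2 rose by 0.17 ± 0.04 and HDAC3 by 0.16 ± 0.06, the latter lost without parental replicate 2, parental replicate 3 or HCT116oxR replicate 3 (0.12 to 0.15), while HDAC1 (-0.08 ± 0.04) and HDAC8 (0.07 ± 0.18) did not pass.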

How the data were processed

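The deposited table held the authors' raw counts per gene for 6 total RNA libraries, 3 of parental HCT116 and 3 of HCT116oxR. Reads were aligned with HISAT2 to GRCh38 per the submitters' processing notes, while the tool that counted reads, its annotation and its use of strand were not given in the sources used here. The small RNA counts were not used. Libraries of the same line always differed by more than counting noise (chi-square divided by its degrees of freedom, at least 2.21). In R 4.3.3, edgeR 4.0.16 removed genes with too few counts by filterByExpr (minimum count 10, minimum total 15), which left 17511 genes, scaled libraries by TMM and fitted line alone with the robust quasi-likelihood F test. Each SE was taken as the size of the log2 fold change divided by the root of its F value. None is given for DHRS2, which was described without a test. Positions, overlaps and upstream sequences came from RefSeq tables for GRCh38.p14, where symbols matched 45971 genes, gene numbers 3686 and older symbols 1854. Ratios within libraries used exact permutation tests (SciPy 1.17.1), and alignments Biopython 1.88.

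Members and lists were chosen with earlier results of these data known. Text names every DHRS gene, up to 6 called members per list with the smallest p and a mean log2 CPM of 1 or more, the 5 nearest tested genes per side of DHRS2 and the 5 called neighbours of largest change above the same level, the 5 genes of most similar profile at a mean log2 CPM of 2 or more, and the genes tied to DHRS2, of which 1 is not reported here. Similarity profiles used log2 CPM after adding the equivalent of 2 counts, which pulls genes near 0 in a line towards a common value. Alternatives were DESeq2 1.42.0, RLE factors, no filter, a replicate block, each library left out, and windows of 0.5 and 2 Mb.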

Additional observations from a re-analysis of the deposited data

How the results depend on the processing

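The log2 fold change of DHRS2 was -7.44 under DESeq2, RLE factors, no filter and the replicate block, and -7.48 to -7.39 without each library in turn. The calls over all genes numbered 6994 to 7275 with a library left out (3542 to 3680 higher, 3452 to 3625 lower). With a library left out the DHRS genes other than DHRS2 that changed numbered 3 to 6 (1 to 3 higher, 2 to 3 lower), the further DHRS-named genes 0 to 1 (0 to 1 lower), the other short-chain dehydrogenases that fell 2 to 5, the retinoid genes that fell 1 to 2, and the genes near DHRS2 that rose 12 to 18. In a window of 0.5 Mb in place of 1 Mb, 12 of 18 genes changed, 7 higher and 5 lower, a share of 66.7% beside 51.7% in 1 Mb and 44.1% of all genes. In 2 Mb they numbered 33 of 64. DESeq2 no longer called SLC22A17 (0.91, adjusted p = 0.102), and NGDN was lost without the filter (edgeR adjusted p = 0.0596). DHRS7B was called without HCT116oxR replicate 1 (-0.37). No called value changed sign in the alternatives run. Some values that had not passed changed sign with a library left out. HDAC8 ran from -0.01 to 0.14. The differences in log2 ratio ran from -0.18 to 0.03 (DHRS4 over DHRS4L2), from -0.0009 to 0.16 (DHRS4-AS1 over DHRS4) and from -0.01 to 0.13 (DHRS4-AS1 over DHRS4L2). The labels number replicates 1 to 3 in each line. Same-numbered libraries deviated together no more than others (correlations across 12600 genes of 0.02, -0.03 and -0.04), so the numbers are not read as pairs. With the replicate block 7565 genes changed in place of 7721, 5 DHRS genes other than DHRS2 changed, as without it, and the log2 fold change of DHRS4 was 0.45. Low counts limit the precision for DHRS4, DHRS4L2, DHRS7, DHRS11 and DHRS12, and left DHRS9 and DHRS4L1 untested.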

Other observations

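DHRS7B acts in ether lipid synthesis, a pathway shared between peroxisomes and the endoplasmic reticulum, and the other enzymes of that pathway were read from the same fit. Of 8 tested genes 2 rose, 3 fell and 3 did not pass, 62.5% changed beside 44.1% of all genes tested, with a median log2 fold change of 0.03. AGPS, which makes the ether bond, fell from 148 ± 2.55 to 64.5 ± 0.676 CPM (-1.20 ± 0.05, SE, n = 3 per line). It lies on chromosome 2, where 9 of the 10 tested genes within 1 Mb of it fell, with a median of -1.16, and the part of that shift in the fall of AGPS was not tested. EPT1, now SELENOI, which attaches phosphoethanolamine to ether lipids, fell from 276.8 ± 3.35 to 226.9 ± 7.45 CPM (-0.29 ± 0.04), and TMEM189, now PEDS1, the plasmalogen desaturase, fell by 0.33 ± 0.08 and overlaps the read-through gene PEDS1-UBE2V1. FAR2, a fatty acyl reductase, rose from 5.08 ± 1.06 to 10.1 ± 0.429 CPM (0.99 ± 0.18), and GNPAT, the acyltransferase that begins the pathway, rose by 0.22 ± 0.06.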
